A study of Homo sapiens with 12 samples.

Results

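Genes of the endoplasmic reticulum (ER) unfolded protein response and of ER quality control were followed across 4 groups of HEK293 cells. The set was a list of 40 gene symbols matched to the gene names of the deposited table, and all 40 were found among its 19836 genes. By role, it held 10 chaperones and co-chaperones, 6 protein disulfide isomerases, 9 genes of ER-associated degradation, 10 genes of protein translocation and signal peptide cleavage, 4 genes of the stress sensors and XBP1, and 1 coat gene of ER exit vesicles. All 40 passed the filter on low values, a mean of at least 10 normalized counts over all libraries, which left 14049 genes for testing.

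HEK293 is an established line from human embryonic kidney that carries adenoviral genes. Poly(A)-selected RNA was sequenced from 12 libraries, 3 per group. Libraries 1 to 3 came from cells given a Flag vector, libraries 4 to 6 from cells given tandem A197-270 plasmids, libraries 7 to 9 from vector cells that also received interferon gamma (IFN-gamma), and libraries 10 to 12 from A197-270 cells that also received IFN-gamma. Transduction was on day 1 in every group, the cytokine was added on day 2 in those that had it, and all cells were harvested on day 4. The labels leave unstated what A197-270 encodes, which promoter drives it and whether the 3 libraries of a group were grown as separate cultures. All p-values therefore measure the spread between these libraries, which may be technical. In bulk RNA, a change in the share of cells that responded and a change in RNA per cell cannot be told apart.

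Proteins that enter the secretory route are threaded into the ER through the SEC61 channel, lose their signal peptide, and fold with the help of chaperones and disulfide isomerases. Those that fail to fold are drawn back to the cytosol, tagged with ubiquitin and destroyed, a route called ER-associated degradation. When unfolded proteins build up, the membrane sensors IRE1 (gene ERN1), ATF6 and PERK (gene EIF2AK3) start the unfolded protein response. IRE1 splices the XBP1 mRNA, and spliced XBP1 and cleaved ATF6 then switch on genes for chaperones and degradation. The values here are sums per gene, so they hold neither the splicing of XBP1 nor the cleavage of ATF6.

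The DNA element through which ATF6, and XBP1 with it, acts is the ER stress response element (ERSE), searched as CCAAT, any 9 bases and then CCACG. A shorter form, ERSE-II, was searched as ATTGG, any 1 base and then CCACG. Both were searched on both strands in RefSeq promoters of GRCh38.p14, from 250 bases before to 50 bases after the start of a gene, of which 37 of the 40 genes had one. ERSE was present in 22 of 27305 promoters (0.0806%) and in 4 of the 37, and ERSE-II in 15 promoters (0.0549%) and in 3 of the 37. These elements were first defined in promoters of such genes, so their presence is background and not a result. The 7 promoters that hold them are shown because they divide the matched genes into those with and without ERSE or ERSE-II as searched here. Each stretch is read 5′ to 3′ on the strand of its gene, with the fixed letters of the element in capitals, and an element on the opposite strand reads as its reverse complement.
HSPA5, chr9:125241381-125241419, minus strand: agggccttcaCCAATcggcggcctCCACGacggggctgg
HSP90B1, chr12:103930206-103930349, plus strand: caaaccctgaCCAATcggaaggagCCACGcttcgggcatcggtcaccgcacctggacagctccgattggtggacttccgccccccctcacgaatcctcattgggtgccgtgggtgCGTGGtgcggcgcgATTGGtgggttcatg
CRELD2, chr22:49918544-49918582, plus strand: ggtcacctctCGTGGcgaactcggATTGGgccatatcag
XBP1, chr22:28800593-28800631, minus strand: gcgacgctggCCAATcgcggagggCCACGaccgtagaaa
HERPUD1, chr16:56932015-56932045, plus strand: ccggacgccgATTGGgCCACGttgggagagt
HYOU1, chr11:119057264-119057400, minus strand: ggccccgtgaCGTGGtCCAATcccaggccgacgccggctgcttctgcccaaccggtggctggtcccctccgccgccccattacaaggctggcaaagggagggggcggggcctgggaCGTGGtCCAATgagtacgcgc
SDF2L1, chr22:21642104-21642134, plus strand: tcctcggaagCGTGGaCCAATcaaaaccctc

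HSP90B1 and HYOU1 each had a pair of elements, and the other 5 genes had 1 each. By role, 5 of the 10 chaperone promoters held ERSE or ERSE-II, as did 1 of the 8 degradation promoters that could be matched and 1 of the 4 in the sensor group. None of the 9 matched translocation promoters and none of the 6 isomerase promoters did. The XBP1 element UPRE, searched as TGACGTGG, was in 217 promoters (0.795%) and in those of DNAJC10, HYOU1 and SEC62, where the HYOU1 site overlaps an ERSE-II. The heat shock element, searched as GAA, TTC and GAA with any 2 bases between each, was in 133 promoters (0.487%) and in none of the 37. No match says only that these letters were not in this window.

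The libraries held 31417431 to 70746868 reads. HSPA6, an inducible cytosolic chaperone, averaged 21.3 normalized counts in the vector group and 7590 in the A197-270 group. It was chosen with earlier results of these data known, so its difference is no independent check of the construct. IRF1, a target of IFN-gamma signalling, went from 391 to 4573 when vector cells received the cytokine. Of 7 HEK293 lineage genes, KRT8, KRT18, VIM, CDH2, NEFM and PAX2 were above 0 in all 12 libraries and PAX8 in 4. Of 8 markers of other cell types, HBB was at 0 in every library and PTPRC and CD3E in 11 of 12. The summed level of those 8 markers was 100.5 to 140.8 in vector, 74.6 to 137 in A197-270, 130.6 to 154.2 in vector with IFN-gamma and 89.3 to 158 in A197-270 with IFN-gamma libraries.

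The ER genes were well expressed, with a median level of 5438 normalized counts against 1173 over all tested genes, and 37 of the 40 lay above that median. Per kilobase of annotated exon, HSPA5 (BiP, the HSP70 of the ER lumen) led with 22178 normalized counts per kb, followed by HSP90B1 (GRP94, the ER form of HSP90) with 17468. PDIA6 and PDIA4, disulfide isomerases, came next with 5847 and 5536 per kb, and XBP1 followed with 4328. The sensors stood at 639 per kb for ATF6, 379 for EIF2AK3 and 213 for ERN1. CRELD2, a small ER-resident stress protein, was lowest of the 40 at 134 per kb. Exon lengths were merged over all annotated transcripts, so a gene with rarely used exons has a low value per kb.

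In cells without IFN-gamma, the A197-270 construct raised the degradation genes SEL1L and OS9, the translocation genes SSR3 and SPCS3 and the chaperones HYOU1 and DNAJC10, and lowered the chaperone DNAJB11. BiP, GRP94 and the sensors did not pass the test. Of the 40 genes, 6 rose and 1 fell, or 17.5%, beside 25.1% of all tested genes, by limma with Benjamini-Hochberg adjusted p under 0.05. In each direction the background was 12.5% higher and 12.6% lower, against 15% and 2.5% of the ER genes. Their median log2 fold change was -0.01, against -0.00 over all tested genes. The groups of libraries did not overlap for 9 of the 40, beside 39.7% of all tested genes without overlap. The share of genes called was below the background in this comparison. The count depended on single libraries and on scaling: it was 3 higher and 3 lower without vector library 1, 3 higher without A197-270 library 5, 3 higher and 6 lower after scaling to equal totals, and 5 higher and 5 lower after quantile normalization.

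With IFN-gamma present in both arms, 12 of the 40 genes were higher in A197-270 than in vector cells and none was lower. The background was 18.6% of all tested genes higher, 16.2% lower and 34.8% in either direction, beside 30% of the ER genes. Of the 40 estimates, 31 were above 0, with a median of 0.07 against -0.01 over all tested genes. Libraries did not overlap between the groups for 15 of the 40, beside 46.3% of all tested genes without overlap. The share called was close to the background, and the calls lay on the higher side. None was lower by limma at an unadjusted p under 0.05, by edgeR or by DESeq2, but 4 were lower, with 9 higher, after scaling to equal totals, and 2 were lower, with 11 higher, after quantile normalization. The comparisons without and with IFN-gamma share no library, only the estimate of the spread.

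**Figure D1:**
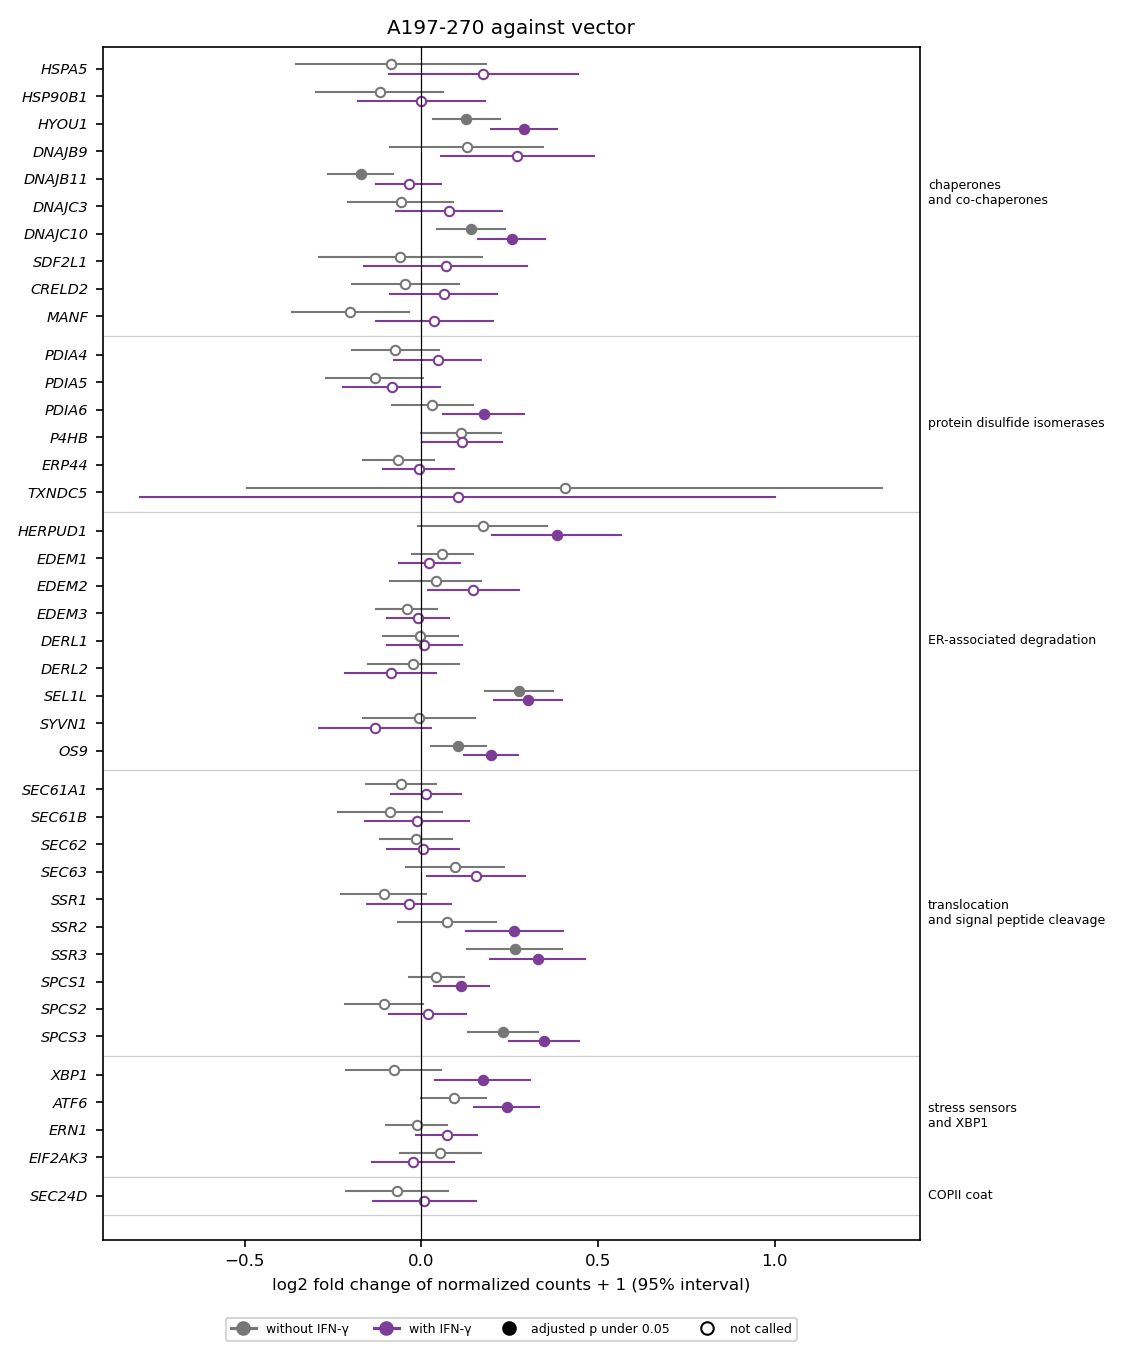
Log2 fold changes of A197-270 over vector for the 40 genes, by role, on the scale of normalized counts plus 1, with 95% intervals from limma on 3 libraries a group. Grey is without and purple with IFN-gamma, and filled points have an adjusted p under 0.05: 7 of 40 without and 12 of 40 with the cytokine.

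Among genes of ER-associated degradation, SEL1L (chr14:81471549-81533861, minus strand) is the adaptor that holds the ubiquitin ligase SYVN1 in its membrane complex. Its normalized counts were 3243, 3239 and 3347 in vector and 3821, 4066 and 4022 in A197-270 libraries. With IFN-gamma they were 3230, 3207 and 2953 in vector and 3820, 4027 and 3733 in A197-270 libraries. All 6 A197-270 libraries were above all 6 vector libraries. SEL1L rose by 0.28 ± 0.0450 (log2 fold change ± SE, n = 3 a group, limma adjusted p = 0.000505) without and by 0.30 ± 0.0450 (limma adjusted p = 0.000192) with IFN-gamma.

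HERPUD1 (chr16:56932048-56944863, plus strand), a membrane protein that brings substrates to the SYVN1 complex, had 4773, 5417 and 6099 normalized counts in vector and 5823, 5868 and 6629 in A197-270 libraries. With IFN-gamma it had 5149, 6077 and 5423 in vector and 7074, 7814 and 6819 in A197-270 libraries. The groups overlapped without the cytokine and stood apart with it. HERPUD1 had a log2 fold change of 0.17 ± 0.0851 (limma adjusted p = 0.157) without IFN-gamma and rose by 0.38 ± 0.0851 (limma adjusted p = 0.00333) with it, which was the largest rise of a called member in that comparison. The difference between these values, 0.21 with an interval from -0.05 to 0.47, did not pass the test.

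OS9, a lectin that hands misfolded glycoproteins to the SEL1L complex, rose in both settings. It had 4580, 4649 and 4581 normalized counts in vector and 5052, 4873 and 4931 in A197-270 libraries, and 3990, 4281 and 4243 against 4757, 4722 and 4856 with IFN-gamma. The log2 fold changes were 0.11 ± 0.0361 (limma adjusted p = 0.0461) and 0.20 ± 0.0361 (limma adjusted p = 0.000891). The smaller of them lost its call after scaling to equal totals and when any of 9 single libraries was left out: vector 1, 2 or 3, A197-270 4, 5 or 6, vector with IFN-gamma 9, or A197-270 with IFN-gamma 10 or 11. SYVN1 (HRD1, the ligase itself), DERL1 and DERL2 (channel proteins of the same route) and the mannosidases EDEM1, EDEM2 and EDEM3 were not called, with log2 fold changes from -0.13 for SYVN1 to 0.15 for EDEM2, both with IFN-gamma. Thus 2 of the 9 degradation genes rose without and 3 of 9 with IFN-gamma, beside 12.5% and 18.6% of all tested genes. Scaling to equal totals gave 1 higher without, and 3 higher and 2 lower with the cytokine.

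In the translocation group, SSR3 (chr3:156540140-156555184, minus strand), a subunit of the translocon-associated protein complex that helps nascent chains through the channel, had 12962, 14310 and 14450 normalized counts in vector and 15756, 16308 and 18060 in A197-270 libraries. With IFN-gamma it had 12486, 13934 and 12856 in vector and 16805, 17238 and 15297 in A197-270 libraries. Every A197-270 library was above every vector library. SSR3 rose by 0.26 ± 0.0629 (limma adjusted p = 0.00719) without and by 0.33 ± 0.0629 (limma adjusted p = 0.00121) with IFN-gamma on the log2 scale.

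SPCS3 (chr4:176319964-176332245, plus strand), a subunit of the signal peptidase, had 8365, 8672 and 8317 normalized counts in vector and 9547, 10294 and 9928 in A197-270 libraries. With IFN-gamma the values were 7574, 7788 and 7343 in vector and 10209, 9682 and 9025 in A197-270 libraries. No vector library reached an A197-270 library. SPCS3 rose by 0.23 ± 0.0461 (limma adjusted p = 0.00224) without and by 0.35 ± 0.0461 (limma adjusted p = 7.54e-05) with the cytokine.

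Not all subunits of a complex were called. SSR2, a partner of SSR3, rose with IFN-gamma present, by 0.26 ± 0.0643 (limma adjusted p = 0.00608), while SSR1 had -0.04 (limma adjusted p = 0.66). SPCS1, a partner of SPCS3, rose by 0.11 ± 0.0365 (limma adjusted p = 0.0269), and SPCS2 had 0.02 (limma adjusted p = 0.825). SPCS1 shares 50.7% of its exon bases with NEK4 on the opposite strand, and no source used here states whether counting used strand, so its value is uncertain. The channel subunits SEC61A1 and SEC61B and the accessory proteins SEC62 and SEC63 were not called in either setting. In all, 2 of the 10 translocation genes rose without and 4 of 10 with IFN-gamma, beside 12.5% and 18.6% of all tested genes. Without the cytokine, scaling to equal totals gave 2 higher and 2 lower, and quantile normalization 2 higher and 1 lower.

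Among the chaperones, HSPA5, the most abundant, was not called. It had 71509, 86360 and 101045 normalized counts in vector and 74613, 80430 and 86992 in A197-270 libraries, with means of 86305 ± 14768 and 80679 ± 6193 (SD, n = 3). With IFN-gamma it had 69531, 101112 and 84012 in vector and 94517, 98731 and 91191 in A197-270 libraries, with means of 84885 ± 15808 and 94813 ± 3779. The libraries of a vector group were spread more widely than the groups were apart. The log2 fold change was -0.09 with an interval from -0.35 to 0.18 (limma adjusted p = 0.669) without IFN-gamma and 0.18 with an interval from -0.09 to 0.44 (limma adjusted p = 0.299) with it. HSP90B1 had -0.12 (limma adjusted p = 0.336) and 0.00 (limma adjusted p = 0.999). Quantile normalization alone called both genes lower without IFN-gamma, HSPA5 with -0.33 and HSP90B1 with -0.37, and HSP90B1 lower with it, with -0.37. For HSPA5 without IFN-gamma, the limma adjusted p over the alternatives ran from 0.0234 to 0.915, and the log2 fold change was 0.04 without vector library 3. A p above the threshold does not show that HSPA5 kept its level, and with IFN-gamma its interval includes a rise of the size seen in SEL1L.

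HYOU1 (chr11:119044189-119057202, minus strand), the exchange factor that resets BiP, had 8572, 8954 and 8855 normalized counts in vector and 9451, 9419 and 9958 in A197-270 libraries. With IFN-gamma it had 7741, 8262 and 7597 in vector and 9248, 9512 and 10110 in A197-270 libraries. Its A197-270 libraries all lay above its vector libraries. HYOU1 rose by 0.13 ± 0.0436 (limma adjusted p = 0.0452) without and by 0.29 ± 0.0436 (limma adjusted p = 0.000206) with IFN-gamma. The first of these calls was lost after scaling to equal totals, after quantile normalization, without the filter on low values and when any of 8 single libraries was left out: vector 1, 2 or 3, A197-270 4, 5 or 6, vector with IFN-gamma 9, or A197-270 with IFN-gamma 11.

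DNAJC10 (ERdj5; chr2:182716041-182794464, plus strand) is a BiP partner that reduces disulfide bonds of degradation substrates. It had 6884, 6974 and 6574 normalized counts in vector and 7271, 8006 and 7257 in A197-270 libraries, and 6130, 6216 and 5792 against 7161, 7360 and 7120 with IFN-gamma. The groups did not overlap in either setting. DNAJC10 rose by 0.14 ± 0.0445 (limma adjusted p = 0.0328) and by 0.26 ± 0.0445 (limma adjusted p = 0.000626), the former call being lost after scaling to equal totals and without vector library 1 or 3 or A197-270 library 5.

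DNAJB11 (ERdj3; chr3:186567403-186585800, plus strand), a BiP partner that binds unfolded chains, went the other way without IFN-gamma. Its counts were 3491, 3573 and 3756 in vector and 3207, 3276 and 3117 in A197-270 libraries, and 3193, 3452 and 3169 against 3195, 3147 and 3224 with IFN-gamma. The groups stood apart without the cytokine and overlapped with it. DNAJB11 fell by 0.17 ± 0.0430 (limma adjusted p = 0.00941) on the log2 scale without IFN-gamma and had -0.04 (limma adjusted p = 0.556) with it. The remaining 5 chaperones and cofactors DNAJB9, DNAJC3, SDF2L1, CRELD2 and MANF were not called, with log2 fold changes from -0.20 (MANF without IFN-gamma) to 0.27 (DNAJB9 with it). The chaperone group thus had 2 genes higher and 1 lower of 10 without (30%, beside 25.1% of all tested genes), and 2 higher of 10 with IFN-gamma (20%, beside 34.8%). The balance without IFN-gamma turned to 0 higher and 2 lower after scaling to equal totals and to 1 higher and 3 lower after quantile normalization. With IFN-gamma these scalings gave 2 higher and 1 lower, and 3 higher and 1 lower.

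**Figure D2:**
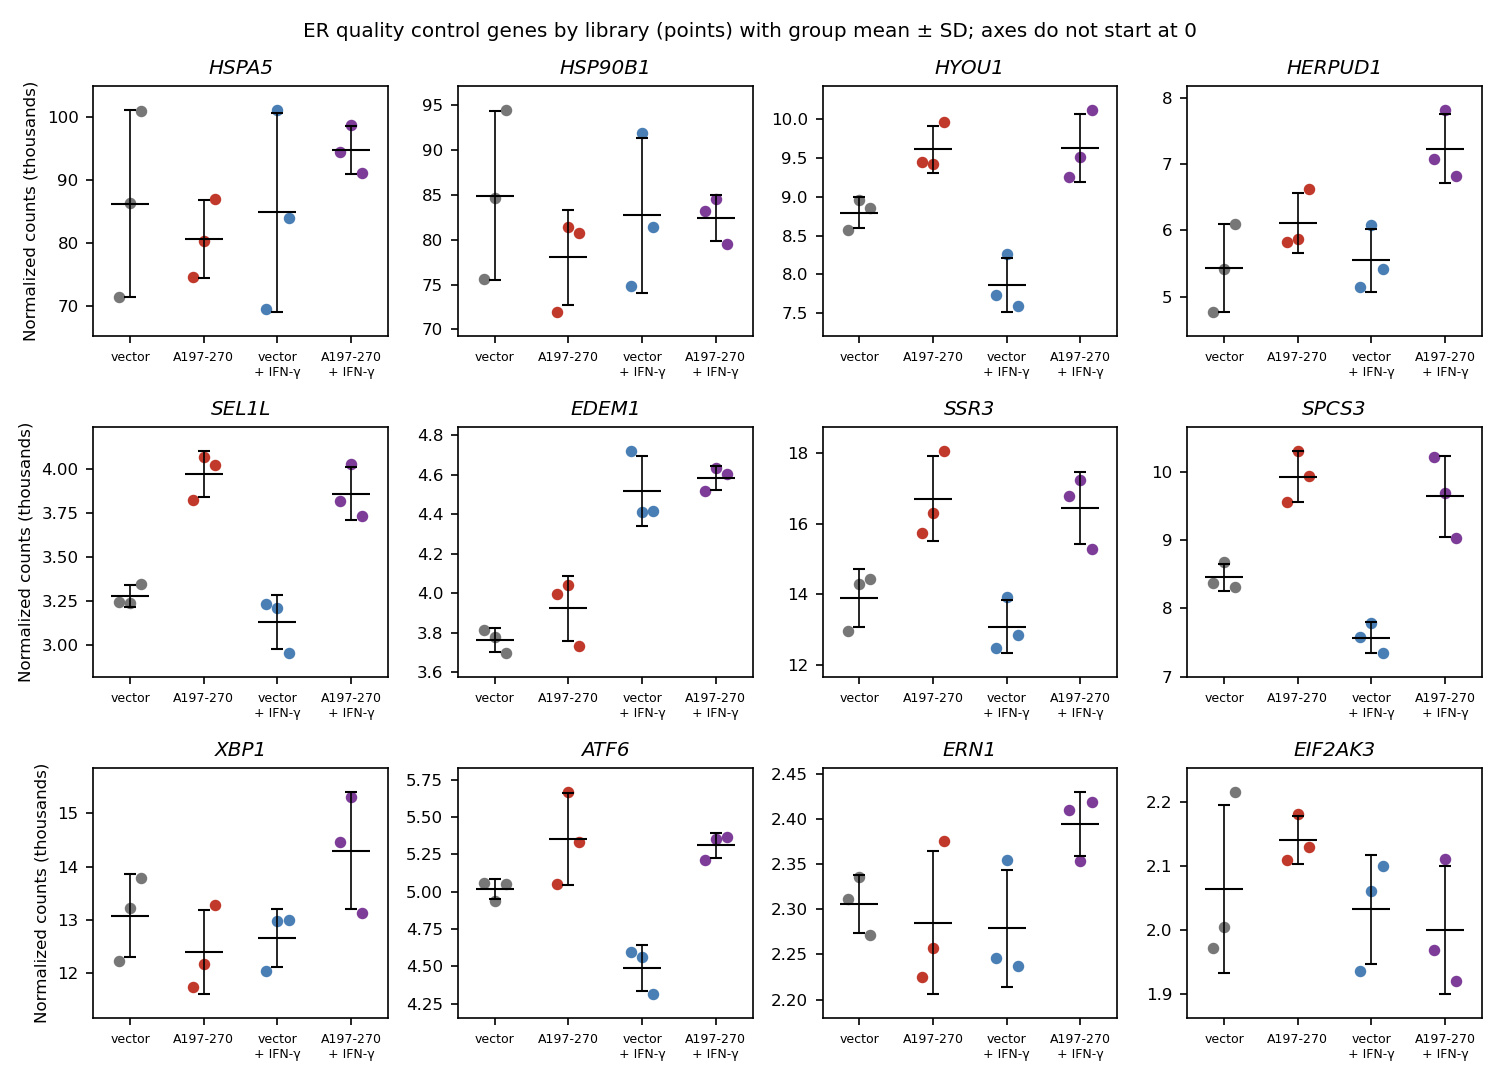
Normalized counts, in units of 1000, of 12 ER genes in the 12 libraries, with the mean and SD of each group of 3; the axes differ between panels and do not start at 0. For SEL1L, SSR3, SPCS3 and HYOU1 all A197-270 points lie above all vector points, and for EDEM1 the points with IFN-gamma lie above those without.

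In the sensor group none of 4 genes was called for the construct without IFN-gamma, where 25.1% of all tested genes were. ATF6 and XBP1, 2 of the 4, rose with the cytokine present, beside 18.6% of all tested genes. XBP1 (chr22:28794555-28800597, minus strand) had 12221, 13225 and 13776 normalized counts in vector, 11738, 12155 and 13274 in A197-270, 12029, 12968 and 12984 in vector with IFN-gamma and 14471, 15302 and 13117 in A197-270 with IFN-gamma libraries. The last group was above the other groups except for library 12, which lay below 2 vector libraries and 1 A197-270 library. The log2 fold change for the construct was -0.08 (limma adjusted p = 0.404) without and 0.17 ± 0.0626 (limma adjusted p = 0.0446) with IFN-gamma. The rise was close to the threshold and was lost after scaling to equal totals, quantile normalization or TMM scaling, by edgeR, without the filter on low values, and when any of 7 libraries was left out: vector 2, A197-270 5, vector with IFN-gamma 7, 8 or 9, or A197-270 with IFN-gamma 10 or 11.

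ATF6 (chr1:161766294-161964070, plus strand) had 5061, 4940 and 5049 normalized counts in vector and 5053, 5666 and 5332 in A197-270 libraries, and 4596, 4566 and 4315 against 5212, 5350 and 5369 with IFN-gamma. The groups overlapped without and stood apart with the cytokine. ATF6 had 0.09 ± 0.0429 (limma adjusted p = 0.139) and rose by 0.24 ± 0.0429 (limma adjusted p = 0.000709) in turn.

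ERN1 (chr17:64039142-64130819, minus strand) had 2311, 2336 and 2272 normalized counts in vector, 2225, 2257 and 2375 in A197-270, 2246, 2354 and 2237 in vector with IFN-gamma and 2410, 2353 and 2419 in A197-270 with IFN-gamma libraries. EIF2AK3 (chr2:88556741-88627576, minus strand) had 1973, 2005 and 2216, then 2110, 2182 and 2130, then 1937, 2062 and 2100, and last 1969, 2112 and 1920 normalized counts in the same order of groups. Neither kinase was called in any comparison, and their groups overlapped throughout. For the construct, the 95% intervals of ERN1 ran from -0.10 to 0.07 without and from -0.01 to 0.16 with IFN-gamma, and those of EIF2AK3 from -0.06 to 0.17 and from -0.14 to 0.09.

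Of the 6 disulfide isomerases, PDIA6 alone was called, for the construct with IFN-gamma present, where 18.6% of all tested genes were higher. It rose there by 0.18 ± 0.0532 (limma adjusted p = 0.0198). That call was lost without vector with IFN-gamma library 7 or A197-270 with IFN-gamma library 10 or 11, after scaling to equal totals and after quantile normalization. PDIA6 shares 25.2% of its exon bases with ATP6V1C2 on the opposite strand. SEC24D, a cargo-binding subunit of the COPII coat, was not called in any comparison, with -0.07 (limma adjusted p = 0.506) and 0.01 (limma adjusted p = 0.937) for the construct.

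TXNDC5, a thioredoxin-like isomerase, is described because of its uneven counts, chosen after its values were seen. It had 13104, 14366 and 7023 normalized counts in vector, 15483, 11715 and 16953 in A197-270, 5842, 8802 and 13459 in vector with IFN-gamma and 15068, 4114 and 13825 in A197-270 with IFN-gamma libraries. The read-through gene BLOC1S5-TXNDC5, which shares 60.6% of the exon bases of TXNDC5 on the same strand, had 8180 in library 3, 4155 in library 5, 6979 in library 7, 4577 in library 8 and 10476 in library 11, and was at 0 in the other 7 libraries. The libraries low in TXNDC5 were those with counts on the read-through gene. Summed over both entries, the values were 13104, 14366 and 15203 in vector, 15483, 15871 and 16953 in A197-270, 12821, 13379 and 13459 in vector with IFN-gamma and 15068, 14590 and 13825 in A197-270 with IFN-gamma libraries. The sums did not overlap between construct and vector in either setting. TXNDC5 alone had a log2 fold change of 0.41 ± 0.420 (limma adjusted p = 0.528) without IFN-gamma, and the sum had 0.18 ± 0.0537 (limma adjusted p = 0.0239). With IFN-gamma the sum had 0.13 (limma adjusted p = 0.0705).

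**Figure D3:**
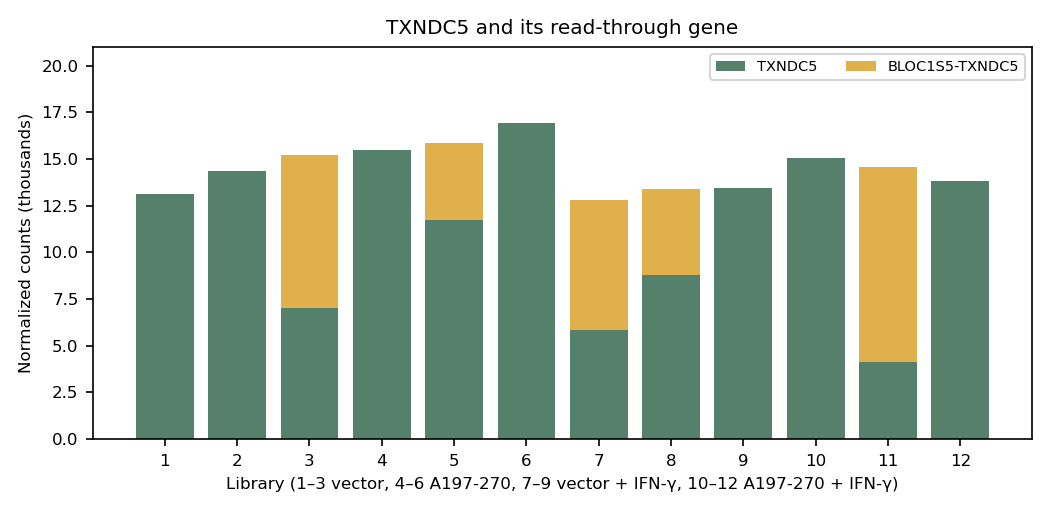
Normalized counts, in units of 1000, of TXNDC5 and of the read-through gene BLOC1S5-TXNDC5, stacked, in each of the 12 libraries. The read-through entry is above 0 in libraries 3, 5, 7, 8 and 11, where TXNDC5 alone is lower than in the rest of its group, and the stacked heights run from 12821 to 16953.

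IFN-gamma in vector cells lowered HYOU1, DNAJC10, ATF6, SPCS3 and 3 further ER genes and raised EDEM1. Of the 40 genes, 1 rose and 7 fell, beside 7.32% of all tested genes higher and 9.79% lower, or 17.1% in either direction against 20% of the ER genes. Groups did not overlap for 12 of the 40, beside 35.5% of all tested genes without overlap. The count of falls was 0 after scaling to equal totals, 4 without vector library 1, 2 without vector library 2, 3 without vector with IFN-gamma library 7 and 2 without vector with IFN-gamma library 9. The count of rises was 2 without vector library 3, after scaling to equal totals, after quantile normalization and by DESeq2. This comparison shares the vector libraries with the construct comparison without IFN-gamma, and the vector libraries with IFN-gamma with the other one.

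EDEM1 (chr3:5187646-5219957, plus strand), which trims mannose from misfolded glycoproteins to mark them for degradation, had 3813, 3777 and 3697 normalized counts in vector and 4719, 4410 and 4417 in vector with IFN-gamma libraries. In A197-270 cells it had 3996, 4040 and 3735 without and 4517, 4633 and 4605 with the cytokine. All 6 libraries with IFN-gamma were above all 6 without. EDEM1 rose by 0.26 ± 0.0405 (limma adjusted p = 0.000667) in vector and by 0.23 ± 0.0405 (limma adjusted p = 0.00287) in A197-270 cells, and these 2 calls held under every alternative tried. SYVN1 had 0.22 ± 0.0741 (limma adjusted p = 0.0594) in vector cells.

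The largest called falls in vector cells were those of DNAJC10 by 0.17 (limma adjusted p = 0.0169), HYOU1 by 0.16 (limma adjusted p = 0.0210), ATF6 by 0.16 (limma adjusted p = 0.0204) and SPCS3 by 0.16 (limma adjusted p = 0.0291), and SPCS1, OS9 and DNAJB11 also fell. TXNDC5, with -0.31 (limma adjusted p = 0.659), and SSR2, with -0.165 (limma adjusted p = 0.0943), were not called. By role, the called falls were in 3 of 10 chaperone, 1 of 9 degradation, 2 of 10 translocation and 1 of 4 sensor genes. Of all tested genes, 9.79% fell. HYOU1, DNAJC10, ATF6, SPCS3, SPCS1 and OS9 are also among the 12 genes higher in A197-270 than in vector cells with IFN-gamma, and both comparisons use vector libraries 7 to 9. For HYOU1 the group means were 8794 ± 198.4 in vector, 7866 ± 349.9 in vector with IFN-gamma, 9609 ± 302 in A197-270 and 9623 ± 441.4 in A197-270 with IFN-gamma (SD, n = 3). For ATF6 they were 5016 ± 66.6, 4492 ± 154.3, 5351 ± 306.6 and 5310 ± 85.4 in the same order. Of the 4 groups, vector with IFN-gamma was lowest for both.

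In A197-270 cells, EDEM1 was the 1 gene of the 40 that rose with IFN-gamma and none fell, beside 4.19% of all tested genes higher and 3% lower, or 7.19% in either direction. Groups did not overlap for 10 of the 40, beside 25.1% of all tested genes without overlap. At an unadjusted p under 0.05, limma gave 7 higher and none lower, edgeR gave 6 higher and 1 lower, and after adjustment DESeq2 called 2 higher and none lower. XBP1 had 0.21 ± 0.0626 (limma adjusted p = 0.0643), and it was called after scaling to equal totals, after quantile normalization, by DESeq2, and without A197-270 library 6 or A197-270 with IFN-gamma library 12. HERPUD1 had 0.24 (limma adjusted p = 0.105) and HSPA5 0.24 with an interval from -0.03 to 0.50 (limma adjusted p = 0.311).

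**Figure D4:**
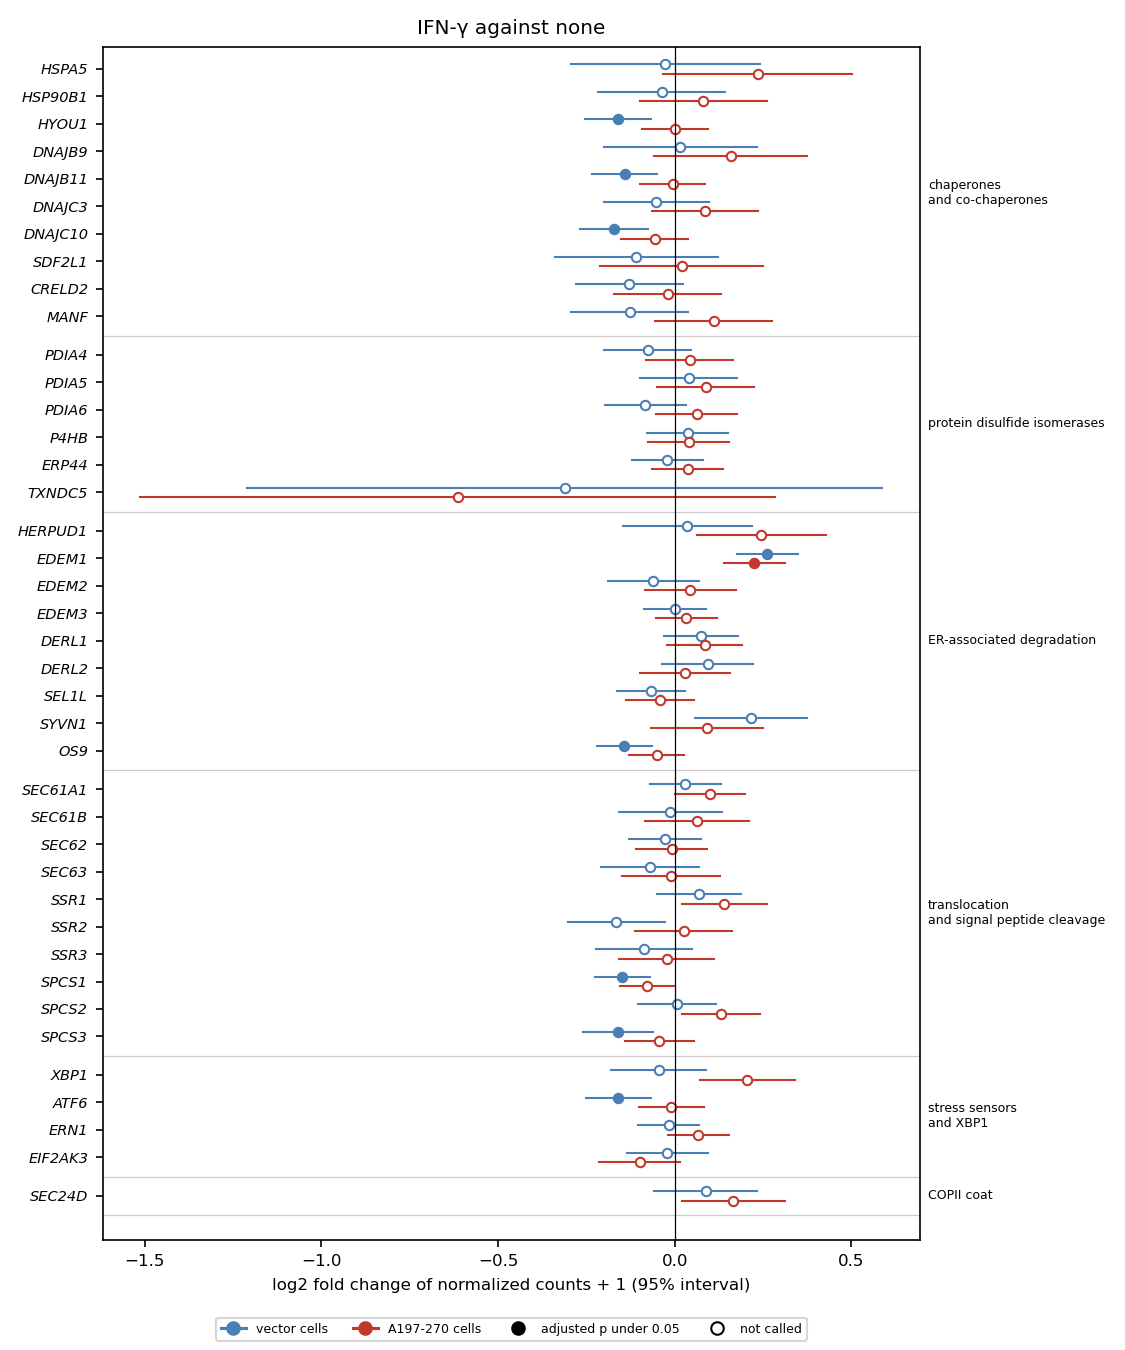
Log2 fold changes of IFN-gamma against none for the 40 genes, by role, on the scale of normalized counts plus 1, with 95% intervals from limma on 3 libraries a group. Blue is vector cells, with 1 gene higher and 7 lower, and red is A197-270 cells, with EDEM1 alone called (filled points have an adjusted p under 0.05).

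The interaction, which is the response to IFN-gamma in A197-270 cells minus that in vector cells, was called for none of the 40 genes by limma, edgeR or DESeq2, where limma called 0.897% of all tested genes, 0.819% higher and 0.0783% lower. At an unadjusted p under 0.05, limma gave 5 genes higher and none lower, and edgeR 3 higher and none lower. Of the 40 estimates, 35 were above 0, with a median of 0.09 against 0.01 over all tested genes. XBP1 had 0.25 with an interval from 0.06 to 0.44 (limma adjusted p = 0.284), HSPA5 0.26 with an interval from -0.12 to 0.64 (limma adjusted p = 0.58), HYOU1 0.16 (limma adjusted p = 0.326) and ATF6 0.15 (limma adjusted p = 0.356). The 6 genes higher with the construct only in the presence of IFN-gamma, which are HERPUD1, SSR2, ATF6, PDIA6, XBP1 and SPCS1, were therefore not shown to differ between the settings.

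Across the comparisons of 2 groups, 14 of the 40 genes were called at least once, beside 45.5% of all tested genes, and 26 were not called in any. SEL1L, SSR3, SPCS3, DNAJC10, HYOU1 and OS9 were higher with the construct in both settings. The calls of DNAJC10, HYOU1 and OS9 without IFN-gamma were lost after scaling to equal totals and in some fits that left out a library. The share of all tested genes higher in both settings was not counted. No gene changed by 2-fold, and the largest log2 fold change was -0.61, that of TXNDC5, which was not called. Of the 7 genes with an ERSE or ERSE-II in the promoter stretches printed above, HYOU1 alone rose with the construct without IFN-gamma. That call was lost after scaling to equal totals, after quantile normalization and without the filter on low values, as given above. With the cytokine present HYOU1, HERPUD1 and XBP1 rose, the XBP1 call being lost under 5 of the processing alternatives, as given above. Of the 30 matched genes with neither element, 5 rose and 1 fell without and 8 rose with the cytokine. Of all tested genes, 12.5% rose without and 18.6% with it, and the difference between genes with and without ERSE or ERSE-II was not tested. Of the 6 genes higher in both settings, 1, HYOU1, held an ERSE or ERSE-II. The XBP1 element UPRE, left out of this division, was in HYOU1 and DNAJC10 among those 6.

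In 3 of the 4 groups, many of the ER genes had their highest or lowest value in the same library. The median coefficient of variation of the 10 chaperones was 6.66% in vector, 6.5% in A197-270, 9.83% in vector with IFN-gamma and 3.34% in A197-270 with IFN-gamma libraries, while that of the 9 degradation genes was 2.63%, 4.37%, 3.90% and 3.92%. For the 7576 tested genes with a mean of at least 1000, it was 3.63%, 3.71%, 3.58% and 3.98%. Library 3 held the highest value of its group for 28 of the 40 genes and library 8 for 30, while library 1 and library 7 each held the lowest for 25. Among A197-270 libraries, library 6 held the highest for 22 and library 4 the lowest for 23. In A197-270 with IFN-gamma libraries the highest values were split as 16, 15 and 9, with library 12 holding the lowest for 20. Over all tested genes, a library held the highest value of its group for 27.2% to 38.0% and the lowest for 25.9% to 39.3%. Library 3 had 68558742 reads and library 8 had 31417431, the fewest of all, while library 1 had 32547177 and library 7 had 36748000. Libraries 3 and 8, both high in their groups, were thus among the deepest and the shallowest. Library 6, also high in its group, had 39180809 reads. Library 5, the deepest with 70746868 reads, held the highest value for 12 genes and the lowest for 12. The part of these shifts in the results was not tested beyond leaving out each library. HSPA5 alone took 0.182% to 0.257% of the gene-assigned reads of a library, and the 40 genes together 1.00% to 1.16%.

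**Figure D5:**
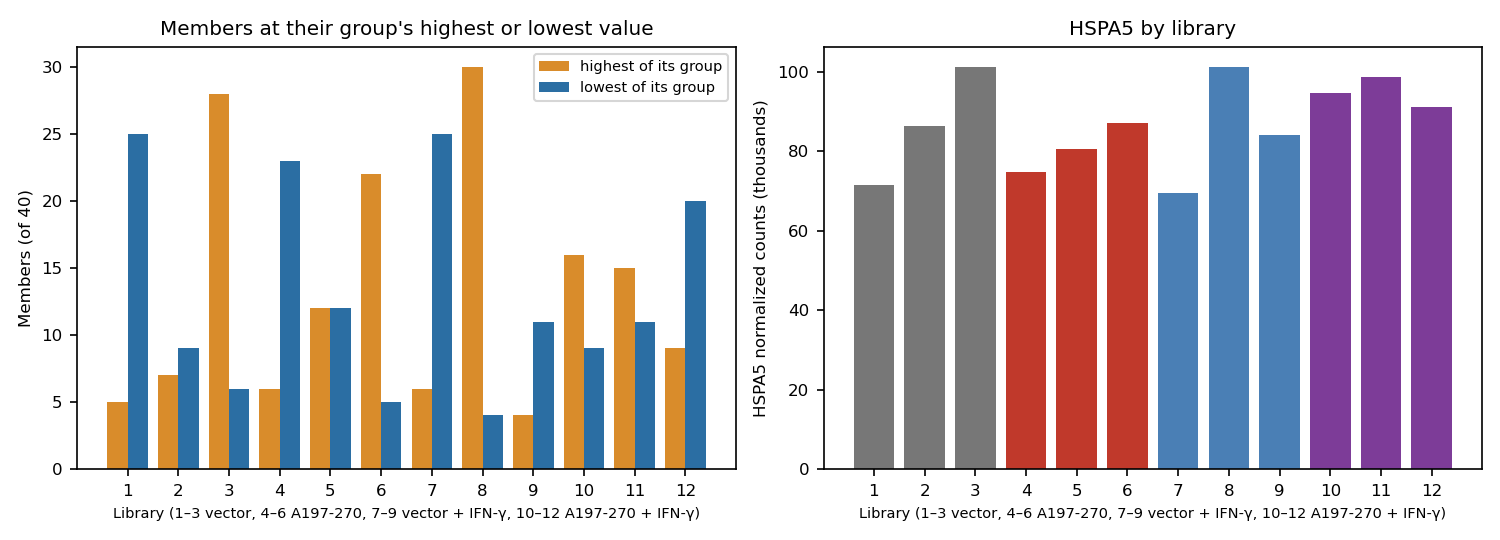
Left, number of the 40 ER genes that have their group's highest (orange) or lowest (blue) value in each of the 12 libraries; right, normalized counts of HSPA5, in units of 1000, in the same libraries. Libraries 3 and 8 hold the highest value for 28 and 30 genes, and HSPA5 reaches 101045 and 101112 there.

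Other genes of the secretory pathway, 101 in 6 lists that do not include the 40, changed in both directions. For the construct, 18 rose and 14 fell without IFN-gamma (31.7%, beside 25.1% of all tested genes), and 28 rose and 12 fell with it (39.6%, beside 34.8%). For IFN-gamma, 3 rose and 11 fell in vector cells (13.9%, beside 17.1%), and 4 rose and 2 fell in A197-270 cells (5.94%, beside 7.19%). The balance of directions depended on the scaling. For the construct, equal totals gave 12 higher and 30 lower without and 17 higher and 27 lower with IFN-gamma, and quantile normalization 16 and 19, and 23 and 19. For IFN-gamma in vector cells, equal totals gave 10 higher and 9 lower and quantile normalization 9 and 11.

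The counts of each list for the construct stand beside 12.5% of all tested genes higher and 12.6% lower without IFN-gamma. With IFN-gamma these shares were 18.6% and 16.2%. Of 12 oligosaccharyltransferase genes, which attach glycans to entering proteins, 4 rose and none fell without and 6 rose and none fell with IFN-gamma. Scaling to equal totals gave 3 higher and 1 lower, then 4 higher and 1 lower. MAGT1, an oxidoreductase subunit, rose by 0.37 (limma adjusted p = 1.46e-05) and 0.57 (limma adjusted p = 3.71e-07). Of 24 lectin chaperones, oxidases and folding enzymes, 5 rose and 2 fell without and 8 rose and 2 fell with IFN-gamma. Equal totals gave 4 higher and 7 lower, then 5 and 4, and quantile normalization gave 6 and 5 in both settings. UGGT1, which tests the fold of glycoproteins, rose by 0.39 (limma adjusted p = 9.32e-06) and 0.48 (limma adjusted p = 1.90e-06). ERO1A, which recharges disulfide isomerases, rose by 0.14 (limma adjusted p = 0.0299) and 0.16 (limma adjusted p = 0.0148), while CALR, a lectin chaperone, had -0.14 (limma adjusted p = 0.0604) and -0.01 (limma adjusted p = 0.908).

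Of 23 further degradation genes, 3 rose and 4 fell without and 4 rose and 3 fell with IFN-gamma, whereas equal totals gave 1 higher and 9 lower, then 2 and 9. ERLIN2, which recruits a ubiquitin ligase to ER substrates, rose by 0.45 (limma adjusted p = 0.000152) and 0.64 (limma adjusted p = 5.90e-06). Of 15 further translocation genes, 1 rose and 2 fell without and 3 rose and 1 fell with IFN-gamma. Equal totals gave 1 higher and 5 lower, then 2 and 3, and quantile normalization 1 and 4, then 3 and 3. SRP19, a subunit of the signal recognition particle, fell by 0.24 (limma adjusted p = 0.0088) without IFN-gamma. SEC11A, a catalytic subunit of the signal peptidase to which SPCS3 belongs, had 0.10 (limma adjusted p = 0.188) and rose by 0.26 (limma adjusted p = 0.00241). Of 11 further COPII genes, none rose and 3 fell in each setting, and the falls numbered 3 to 5 under the other scalings. SAR1A, the GTPase that starts the coat, fell by 0.33 (limma adjusted p = 0.000714) and by 0.23 (limma adjusted p = 0.00608) on the log2 scale.

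Of 16 stress signalling genes, 5 rose and 3 fell without and 7 rose and 3 fell with IFN-gamma. With IFN-gamma, equal totals gave 4 higher and 6 lower and quantile normalization 6 and 5. TRIB3, a pseudokinase induced by several stresses, rose by 0.63 (limma adjusted p = 0.000137) and 0.67 (limma adjusted p = 5.93e-05) with the construct. DDIT3 (CHOP), a transcription factor downstream of PERK and ATF4, had -0.16 (limma adjusted p = 0.437) and -0.31 (limma adjusted p = 0.0946) for the construct. It rose with IFN-gamma by 0.65 (limma adjusted p = 0.00542) in vector and by 0.50 (limma adjusted p = 0.0402) in A197-270 cells. ATF4, the factor whose translation PERK promotes, was not called in any comparison, with log2 fold changes from 0.03 to 0.17 in those of 2 groups.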

How the data were processed

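RNA-seq libraries of 12 HEK293 samples were analysed from 1 deposited table of normalized counts per gene, a signal in which the authors divided each library by its own factor. HISAT2 2.1.0 and StringTie 1.3.3b are listed in the submitters' processing notes, as are DESeq2 1.22.1 and build hg38, without saying what each did. The annotation release, the strand setting and the treatment of shared reads are not given in the sources used here. Within every column 100% of the values lay within 0.001 of a whole number of reads, so reads could be recovered, and median-of-ratios factors on them equalled the deposited scaling.

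Differences were tested with limma 3.58.1 (R 4.3.3) on log2(value + 1), which understates folds of low genes, with a mean-variance trend and 1 model of 4 group means over all 12 libraries. Two-sided p-values were adjusted by Benjamini-Hochberg over 14049 genes within each comparison, at a threshold of 0.05. Genes below the filter took 0.0179% of the recovered reads. The fit was tested on simulated data. Alternatives were pseudocounts of 0.5 and 5, no filter, equal totals, quantile normalization, TMM, edgeR 4.0.16 and DESeq2 1.42.0 on recovered reads, and leaving out each library; edgeR called 1796 genes higher and 1737 lower for the construct without IFN-gamma, against 1756 and 1766 by limma. Adding the read-through entry to TXNDC5 was chosen after seeing the data.

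Gene positions and merged exon lengths are from GENCODE 29 on GRCh38, which matched 19804 of 19836 identifiers and all 40 genes. Full values are given for HSPA5, XBP1, the sensors and the 4 largest called rises and falls of each comparison, and from each other list the most changed called gene of a comparison, with DDIT3, ATF4, CALR and ERO1A in any case. OS9 was given in full beyond that rule because it rose in both settings. The genes and lists were chosen with earlier results of these data known.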

Additional observations from a re-analysis of the deposited data

How the results depend on the processing

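No gene of the 40 that was called reversed its direction under any alternative. Of 28 calls of a gene in a comparison, 15 held under every alternative: DNAJB11, SEL1L, SSR3 and SPCS3 for the construct without IFN-gamma; HYOU1, DNAJC10, HERPUD1, SEL1L, OS9, SSR2, SSR3, SPCS3 and ATF6 with it; and EDEM1 in both IFN-gamma comparisons. Equal totals lost 13 calls, quantile normalization 3, edgeR and the lack of a filter 2 each and TMM 1, and over the 12 fits that each left out a library a call was lost 52 times. Equal totals moved the median of all genes by at most 0.09 on the log2 scale, downward for the construct. Counts of genes called for the construct without IFN-gamma were 3 higher and 6 lower under equal totals, 5 lower under quantile normalization and 2 lower by DESeq2. With IFN-gamma, 4 were lower under equal totals and 2 under quantile normalization. For IFN-gamma in vector cells, 2 were higher under equal totals, quantile normalization and DESeq2, and 0 lower under equal totals. In A197-270 cells 2 were higher under equal totals, 3 under quantile normalization and 2 by DESeq2. The cause was not tested.

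Leaving out each library in turn gave 3 to 6 higher and 1 to 3 lower for the construct without IFN-gamma, 9 to 14 higher and 0 lower with it, 1 to 2 higher and 2 to 8 lower for IFN-gamma in vector cells, 1 to 2 higher and 0 lower in A197-270 cells, and 0 for the interaction. No paired analysis was possible because each library carries a number of its own and the groups share none. With 3 libraries a group, the wide spread of HSPA5 limits what could be detected for it.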
